A study of Homo sapiens with 6 samples.

Results

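Early-named human microRNA (miRNA) hairpins that the deposited table marks No in its 2-nt column, outside the families set aside below, are described here. The members were chosen by name and class. A member carries a mir number under 540, has the entry No in the 2-nt column, and is not among the numbers set aside for families, clusters and hairpins with large or unusual responses. This left 15 of the 147 hairpins in the table: mir-9-1, mir-9-2, mir-95, mir-185, mir-193b, mir-197, mir-342, mir-361, mir-374a, mir-374b, mir-375, mir-378a, mir-381, mir-423 and mir-454. They stand for 14 miRNAs, all from the 3′ arm (3p), since mir-9-1 and mir-9-2 both give miR-9-3p. Class No holds 74 hairpins in the whole table and class Yes 73.

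Small RNAs were sequenced from HCT116 DICER-KO cells, a human colorectal carcinoma line in which the DICER gene was knocked out, so every sample carries that loss. The DICER-WT rescue group (3 samples) received the pXG-DICER-WT plasmid, and the DICER-delHelicase rescue group (3 samples) received a plasmid for DICER without its helicase domain. RNA was taken 48 h after transfection in both, so DICER came from a transiently transfected plasmid and not from its own locus. The table gives 1 variation score per hairpin and construct, headed as a global variation, with no value per sample. None of the differences below therefore has a replicate check or a test, and neighbouring scores cannot be said to differ. The depth behind a score is unknown, and the labels do not say whether the 3 samples came from separate cultures. The sources used here do not give the score's formula. The table holds no gene levels, so neither the cell line nor the restored DICER could be checked in it.

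A precursor miRNA is a short hairpin, and the RNase III enzyme DICER cuts off its loop. Its cut on the 3′ arm sets the 5′ end of the 3p miRNA, and with it the seed, bases 2 to 8, through which a miRNA recognises its targets. Where DICER cuts is known to depend on the distance to the ends of the precursor and on the distance to a loop or bulge on the apical side of the cut. The helicase domain of DICER lies near the apical part of a bound precursor and is known to affect how some precursors are recognised. A score near 0 was read here as products with little variation and a higher score as products with more.

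The rule used measured values in its choice. The 2-nt class comes from the DICER-WT libraries, and many numbers were set aside because of how their scores differed between the constructs. The hairpins with the largest increases and decreases of the table are therefore outside this set by choice. How far the members' scores moved is a description and supports nothing on its own. At the numeric limit, the last members were mir-423 (0.136 with DICER-WT and 0.144 with DICER-delHelicase) and mir-454 (0.0169 and 0.0158). The first class No hairpins beyond it were mir-548e (0.123 and 0.360) and mir-548o (0 and 0.00282).

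The letters around the cut show what the members have in common and where they differ. For each member the 20 bases below run 5′ to 3′, 12 on the loop side and 8 from the 3p miRNA, so the cut lies after base 12. Capitals mark bases that are paired in the predicted minimum free energy structure of the deposited hairpin, and lower case marks unpaired ones. Sequences of hairpins are those deposited, and the start of each miRNA is that of RefSeq (GRCh38.p14), which matched all 15 members. The main DICER-WT end had offset 0 in all 15, read here as the annotated 5′ end.
mir-197: agcuCUUcACCcUUCACcaC
mir-342: uuaAUGgaauUgUCUCACAC
mir-375: GgaccugagCGuUUUGUuCG
mir-95: AaaugcgUUAcAUUCAACGG
mir-185: GGuccccuCCcCAGGGGCUG
mir-193b: uauguuuuAUcCAaCUgGCC
mir-378a: ccuagaaAuaGCACuGGACU
mir-9-1: UguggAgUcUUCAUAaAGCU
mir-374a: AGUGUuauaGCACUUAUCAG
mir-374b: AGUGUccuaGCACUUAGCAG
mir-381: auugacAUgGAAUAUACAAG
mir-423: cuauuuuccAAAAGCUCGgU
mir-454: aAUAGUucuGAGuaguGCAA
mir-9-2: GuauugguCUUCAUAaAGCU
mir-361: aauuucaaAAAGUcCCCCaG

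Reading leftward from the cut, the number of paired bases before the first unpaired base was 0 in 3 members (mir-197, mir-342, mir-375) and 1 in 3 (mir-95, mir-185, mir-193b). It was 2 in mir-378a alone, 3 in 6 members (mir-9-1, mir-374a, mir-374b, mir-381, mir-423, mir-454) and 4 in mir-9-2 and mir-361. In centroid structures, which leave weakly supported pairs open, the run was 2 in mir-454 and 3 in mir-9-2, and as before in the other 13. In the table as a whole, the 2-nt column went with this count. Exactly 2 paired bases preceded the cut in 53 of 66 class Yes hairpins (80.3%) and in 3 of 66 class No hairpins (4.55%). The sources used here do not define the column, and because the class chose the members, this is a description of the class and not a finding about them. The 3 class No hairpins with 2 paired bases were mir-378a, mir-101-2 and mir-1301, named after their values were seen. In centroid structures the class No count was 7 of 66 (10.6%) and the class Yes count 51 of 66.

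Among the 15 hairpins chosen by the same numbers but with class Yes, 14 could be placed, and 12 of those had 2 paired bases before the cut, the others being mir-22 with 4 and mir-340 with 7. The base 3 positions before the cut was unpaired with a median probability of 97.1% in that class Yes set and 15.4% in the members. In the 8 members with 3 or 4 paired bases, the first unpaired base thus lay 1 or 2 positions farther from the cut than in those 12 hairpins. An unpaired base directly beside the cut was predicted in 4 of 15 members, against 20.5% of all hairpins of the table that could be placed. The apical loop held 4 to 10 bases in the members (median 6), and 3 to 17 in the whole table (median 6).

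The 3p miRNAs of the members were 22 or 23 bases long. Between the annotated 5p and 3p miRNAs lay 8 to 21 bases (median 15.5 over the 14 members with both arms in RefSeq), with 8 in mir-374b and 21 in mir-342. From the start of the 5p to the end of the 3p miRNA the precursors measured 52 to 65 bases, mir-374b being the shortest and mir-342 the longest. The 3p miRNA began with U in 7 members, A in 6, C in 2 and G in none. GC content of the hairpins ran from 32.6% in mir-374a to 71.4% in mir-375, with a median of 45.5% against 51.7% for the whole table.

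The delHelicase score was the higher one in 12 of the 15 members and the lower one in 3 (mir-193b, mir-361, mir-454). In the whole table it was the higher one in 72.1% of hairpins and the lower one in 25.9%, so the members' counts lie near the background. The median score of the members was 0.0862 with DICER-WT (range 0.0169 to 0.223) and 0.125 with DICER-delHelicase (range 0.0158 to 0.496). Over all hairpins the medians were 0.0804 and 0.146. The median difference, delHelicase minus WT, was 0.0447 in the members (range -0.0861 to 0.315) and 0.0261 over the table.

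Differences of at least 0.1 were found in 5 members, each higher with DICER-delHelicase, and in none downward. Of all hairpins, 37.4% were higher and 7.48% lower by that much. At 0.05 or more, 7 members were higher and 1 lower, against 46.3% and 11.6% of all hairpins. Both counts of higher members include mir-9-1 and mir-9-2, whose scores are identical and are not separate measurements. At 0.2 or more, 2 members were higher and none lower, against 20.4% and 2.72%. The score exceeded 0.5 in no member with either construct, and in 27 of 147 hairpins with DICER-delHelicase. The rule set aside hairpins with large or unusual responses, so this contrast and the counts above are in part fixed by that choice. Scores under 0.05 with both constructs were found in 2 members (mir-185 and mir-454) and in 42 hairpins of the table. In the class Yes set chosen by the same numbers, 10 of 15 scored higher and 5 lower, with median scores of 0.116 and 0.209 and a median difference of 0.0220. This difference between the sets was not tested. The sets are also not independent, since miR-9-3p enters both. It enters through mir-9-3 in class Yes and through mir-9-1 and mir-9-2 in the members, and reads of these copies may not be separable.

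The member with the largest increase was mir-378a, the only one with 2 paired bases before the cut. It lies within PPARGC1B, the gene of a metabolic coactivator, and miR-378a-3p is known for roles in energy metabolism. DICER-WT gave a score of 0.119 and DICER-delHelicase one of 0.434, a difference of 0.315, which was the 24th largest of the 147. Its order among the members moved from 7th to 2nd. The bases 3, 4 and 5 positions before the cut had unpaired probabilities of 55.1%, 54.2% and 50.0%, so neither the open nor the paired form clearly prevailed there. The hairpin is shown because it carries this difference, with the 3p miRNA in capitals.
mir-378a: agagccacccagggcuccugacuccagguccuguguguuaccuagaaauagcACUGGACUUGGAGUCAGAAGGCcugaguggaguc

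The hairpins mir-374a and mir-374b are paralogs in introns of FTX, a long non-coding RNA gene of the X inactivation centre. Their deposited scores differed, and their predicted structures around the cut were alike. These scores have no replicate check, and a relation of the structure to them was not tested. With DICER-WT, mir-374a scored 0.0324 and mir-374b 0.223, the highest of the members. Under DICER-delHelicase they scored 0.125 and 0.496, the latter again the highest. The paralogs thus lay 0.191 apart with DICER-WT and 0.370 apart with DICER-delHelicase. Both were higher with DICER-delHelicase, by 0.0931 and 0.272. As a ratio of delHelicase to WT score the order was the reverse, 3.87 in mir-374a and 2.22 in mir-374b. Which paralog moved more thus depends on the scale.

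In both hairpins 3 paired bases and then a loop of 4 unpaired bases preceded the cut. The third base before the cut was unpaired with a probability of 9.46% in mir-374a and 9.39% in mir-374b, and the fourth with 99.9% in both. The 20-base windows differed at 3 bases. The miRNAs themselves differ at 4 of their 22 positions. Counted from 1 at the 5′ end, with miR-374a-3p first, these are U5G, A9G, G17A and A19C, and U5G lies in the seed. The miRNAs carry different seeds, here in capitals.
miR-374a-3p: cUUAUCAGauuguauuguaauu
miR-374b-3p: cUUAGCAGguuguauuaucauu
From the midpoint to the 3′ end, the longest identical run of these hairpins was 8 bases. The hairpins are shown to let the loops be compared, with the miRNA in capitals.
mir-374a: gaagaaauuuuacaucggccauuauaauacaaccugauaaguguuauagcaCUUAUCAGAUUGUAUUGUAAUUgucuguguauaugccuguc
mir-374b: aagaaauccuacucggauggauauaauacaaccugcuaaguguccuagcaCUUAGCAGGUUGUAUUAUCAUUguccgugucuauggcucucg

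The neural miRNA miR-9 is made from several loci. Both members scored 0.166 with DICER-WT and 0.325 without the helicase domain, mir-9-1 in an intron of C1orf61 and mir-9-2 in an exon of LINC00461, a long non-coding RNA. The scores of these copies were identical in the table, and from the midpoint to the 3′ end they share a run of 33 bases, so they count as 1 measurement. The third copy, mir-9-3, is marked Yes and is no member. Its scores of 0.166 and 0.320 differed from those of mir-9-1 by 0.000263 and -0.00447. All 3 copies give the same mature sequence, so their reads may not be separable, and the near-identical scores cannot show whether the copies are cut alike.

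The class entry nevertheless differed between the copies, as did the predicted structure. The run of paired bases before the cut was 3 in mir-9-1, 4 in mir-9-2 and 2 in mir-9-3. The third base before the cut was unpaired with a probability of 15.4% in mir-9-1, 25.7% in mir-9-2 and 99.8% in mir-9-3. The hairpins are printed because only their loops set them apart at the cut, and the shared miRNA is in capitals.
mir-9-1: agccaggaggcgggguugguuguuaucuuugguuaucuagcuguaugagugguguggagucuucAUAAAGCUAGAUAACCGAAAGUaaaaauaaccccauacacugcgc
mir-9-2: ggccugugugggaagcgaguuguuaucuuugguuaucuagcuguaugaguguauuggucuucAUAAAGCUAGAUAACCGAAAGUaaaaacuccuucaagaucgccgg
mir-9-3: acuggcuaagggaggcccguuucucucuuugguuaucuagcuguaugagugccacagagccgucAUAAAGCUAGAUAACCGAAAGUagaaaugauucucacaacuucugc

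The remaining member with a difference of at least 0.1 was mir-95. It scored 0.0749 with DICER-WT and 0.227 with DICER-delHelicase, a difference of 0.152. A single paired base separated its cut from an unpaired base, which was open with a probability of 75.9%.

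Of the members with 0 paired bases before the cut, all 3 scored somewhat higher with DICER-delHelicase, by 0.0381 to 0.0537. The mir-197 hairpin, in an exon of GNAI3 with untranslated sequence, scored 0.0230 and 0.0611. For mir-342, in an intron of EVL, the scores were 0.0651 and 0.110. The mir-375 hairpin overlaps no annotated gene on its strand, and miR-375-3p is known from pancreatic islets and other secretory cells. Its scores were 0.0655 (DICER-WT) and 0.119 (DICER-delHelicase). The base before the cut was unpaired with a probability of 78.7% in mir-197, 55.7% in mir-342 and 97.5% in mir-375. In the 15 hairpins of the table with such a cut, whatever their class, 14 scored higher with DICER-delHelicase, with a median difference of 0.0381, against 72.1% higher and a median of 0.0261 over all hairpins. With 1, 2, 3 and 4 or more paired bases, 6 of 9, 38 of 56, 18 of 26 and 18 of 26 scored higher. Their median differences lay from 0.0170 to 0.0340. The 15 hairpins include the 3 members, and 14 of the 15 are of class No. Their median DICER-WT score was 0.0274, against 0.0804 over all hairpins, which left little room for a decrease. The contrast was not tested.

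The 3 members that scored lower with DICER-delHelicase had 1, 3 or 4 paired bases before the cut. The mir-361 hairpin, in an intron of CHM, the choroideremia gene, had 4 paired bases before the cut and a loop of 10. It scored 0.149 with DICER-WT and 0.0631 with DICER-delHelicase, a difference of -0.0861, and went from 5th to 12th among the members. For mir-193b, in an intron of its host transcript MIR193BHG, the scores were 0.178 and 0.141, a difference of -0.0369, and 1 paired base preceded its cut. The mir-454 hairpin, in an intron of SKA2, scored 0.0169 and 0.0158, a difference of -0.00113, and was the lowest member with either construct. Its seed AGUGCAA is shared with miR-130b-3p and with no other placed miRNA of the table. The class Yes hairpin mir-130b scored 0 with DICER-WT and 0.0120 with DICER-delHelicase. Both carriers of this seed thus scored under 0.05 with both constructs, as did 28.6% of all hairpins, so this is not particular to the seed. The mature sequences of these miRNAs follow with the seed in capitals, and mir-130b was added after its values were seen.
miR-361-3p: uCCCCCAGgugugauucugauuu
miR-193b-3p: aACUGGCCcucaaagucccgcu
miR-454-3p: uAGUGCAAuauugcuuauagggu
miR-130b-3p: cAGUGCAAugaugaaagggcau

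In the predicted structures, 7 bases of the 3p miRNA were unpaired in mir-361 and in mir-454, the highest number among the members. There were 2 or 3 in the members with a difference of at least 0.1, but also 3 in mir-193b, which scored lower, and 1 in mir-185, which hardly differed. Across the 15 members, Spearman's rho between this number and the difference was -0.49, and over all placed hairpins of the table it was -0.08. Other features were correlated with the difference as well. For the size of the apical loop rho was -0.39 in the members and -0.35 over all placed hairpins. For GC content it was -0.02 and 0.03, and for the predicted folding energy 0.05 and -0.17. These are relations across hairpins, which are not replicates, and none was tested. The rule set many hairpins aside by how their scores differed, so the members' rho values rest on a selected range and support nothing. The points share their libraries, and the mir-9 copies enter as separate points.

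Near-equal scores with both constructs, differing by less than 0.01, were found in 4 members: mir-454, given above, mir-185, mir-381 and mir-423. The mir-185 hairpin, in an intron of TANGO2 in the chromosome 22 region deleted in DiGeorge syndrome, scored 0.0341 and 0.0353. The mir-381 hairpin lies in an intron of MIR381HG in the imprinted miRNA cluster of chromosome 14, and scored 0.0862 and 0.0877. For mir-423, in an exon of NSRP1 with untranslated sequence, the scores were 0.136 and 0.144. Neither mir-381 nor mir-423 scored under 0.05 with either construct, and why their scores were near-equal was not tested. Both had 3 paired bases before the cut, as had mir-374b, which differed by 0.272. Scores thus moved by unlike amounts in members with the same run, and a relation of the run to the difference was not tested. Among the 6 members with a run of 3 the differences ran from -0.00113 to 0.272, with a median of 0.0505. The miRNAs of mir-381 and mir-423, and of mir-197, whose difference was the next smallest after mir-193b among members over 0.05 with either construct, are shown with their seeds in capitals.
miR-381-3p: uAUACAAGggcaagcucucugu
miR-423-3p: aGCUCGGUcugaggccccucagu
miR-197-3p: uUCACCACcuucuccacccagc

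By genomic setting, given for 14 members, 6 lie in introns of protein-coding genes on the same strand, 4 of them higher with DICER-delHelicase and 2 lower. Introns of long non-coding RNAs hold 4 members, 3 higher and 1 lower. Exons of protein-coding genes hold 2, an exon of a long non-coding RNA 1, and mir-375 lies outside genes on its strand. A further list, drawn up here by miRNA name and meant for miRNAs of housekeeping host genes, took 9 members, 7 higher and 2 lower. Their median difference was 0.0381, against 0.0261 over all hairpins. It does not hold all members lying in genes, since mir-9-1, mir-9-2, mir-193b and mir-381 are not on it. Whether the hosts are housekeeping genes was not checked. Of all hairpins 72.1% were higher and 25.9% lower, and the counts of these small groups lie near those shares.

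On GRCh38.p14 the RefSeq hairpins of the members described in most detail lie as follows. The mir-378a hairpin spans 149732825 to 149732890 on the plus strand of chromosome 5. On the minus strand of chromosome X, mir-374a spans 74287286 to 74287357, mir-374b 74218547 to 74218618, and mir-361 85903636 to 85903707. The miR-9 copies span 156420341 to 156420429 on chromosome 1 (mir-9-1) and 88666853 to 88666939 on chromosome 5 (mir-9-2), both on the minus strand. The mir-193b hairpin spans 14303967 to 14304049 on the plus strand of chromosome 16. On the minus strand of chromosome 17, mir-454 spans 59137758 to 59137872, and on its plus strand mir-423 spans 30117079 to 30117172.
The mir-375 hairpin spans 219001645 to 219001708 on the minus strand of chromosome 2. On plus strands, mir-185 spans 20033139 to 20033220 of chromosome 22, mir-197 spans 109598893 to 109598967 of chromosome 1 and mir-342 spans 100109655 to 100109753 of chromosome 14. For mir-381 the position of the mature 3p miRNA was used, 101045968 to 101045989 on the plus strand of chromosome 14.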

How the data were processed

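Small RNA libraries were made, per the labels' protocols, from small RNAs that were separated out of 10 µg total RNA on a 12% urea gel. The submitters' processing notes name cutadapt, Bowtie2, bedtools and GRCh38, with no settings in the sources used here. The authors deposited 1 variation score per hairpin and construct (294 lines), per the file headers a global variation. The sources used here do not say how the 3 samples were combined. The offset and the 2-nt class are, per the file headers, from the DICER-WT libraries.

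Differences are delHelicase minus WT scores (pandas 2.3.3). Each deposited hairpin was folded with ViennaRNA 2.7.2 at 37 °C. The deposited sequence exceeded the RefSeq hairpin by 10 bases on each side in the 13 members compared with one, and these bases were folded too. The cut was placed at the RefSeq 5′ end of the 3p miRNA plus the deposited offset. Of 147 hairpins 15 could not be placed. These had no RefSeq entry under their miRNA name or, for mir-941 copies, held the miRNA 2 times. Host genes come from GENCODE release 29, and the genomic setting of mir-95 is not reported here. Shared seeds were searched among placed hairpins. Structure functions were tested on simulated hairpins with paired bases on both sides of the cut, so cuts beside an unpaired base were not covered.

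The members and lists were chosen with earlier results of these data known. All members are named; sequences were printed for the 4 largest increases, the decreases, the 4 smallest differences among members scoring over 0.05 with either construct, and others as stated. Number ranges in the imprinted-cluster list that take mir-374, mir-375 and mir-378 were not applied, since these lie on other chromosomes.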

Additional observations from a re-analysis of the deposited data

How the results depend on the processing

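The median difference of the members was 0.0447, against 0.0782 as a mean and 0.0414 with 1 value per miRNA. It was 0.159 in the 7 members whose mean of both scores exceeded the table's median, a selection that the difference itself helps decide and that supports nothing. Requiring offset 0, or leaving the offset out, could change nothing, since every member has offset 0. When only differences of at least 0.05 counted, 7 members were higher instead of 12, and 11 of 14 were higher with 1 value per miRNA. Members with a difference in either direction numbered 5 at a limit of 0.1, 8 at 0.05 and 2 at 0.2, as limits of different height must give. The counts at 0.1 and 0.05 include both mir-9 copies, whose scores are identical. In centroid structures the median apical loop held 9 bases instead of 6, the median paired run before the cut was 2 instead of 3, and 3 members instead of 4 had an unpaired base beside the cut; 13 of 15 members, all but mir-9-2 and mir-454, kept their run. No paired analysis was possible because no score is given per sample, so neither the replicate block nor a fit without a replicate could be made. Depth is unknown, which limits what small differences and scores close to 0 can show.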
